A study of Mus musculus with 10 samples.

Results

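Cell cycle and DNA replication genes were examined in mouse peritoneal macrophages. The genes were taken from the table of estimated read counts as the rows of 42 listed genes for DNA replication, mitosis, cyclins, cyclin-dependent kinases (CDKs), E2F factors and CDK inhibitors, out of 22818 rows that could be paired with a gene symbol. All 42 were found: 12 replication genes, 13 mitosis genes, 14 genes for cyclins, CDKs and E2F factors, and 3 inhibitors. RNA was sequenced from 10 libraries, 5 control and 5 ox-LDL. The cells came from C57BL/6 mice aged 8 weeks and, by the study's methods, were elicited into the peritoneal cavity with thioglycollate and collected on day 3 by lavage. In the labels the ox-LDL-treated macrophages were primed with LPS, a bacterial product, at 100 ng/ml and then received oxidized low-density lipoprotein (ox-LDL) at 100 ug/ml for 16 h, and the control cells are called untreated. The study's own legend leaves room for controls that had received LPS too. If the labels hold, a difference between the groups holds the effects of LPS and of ox-LDL, which cannot be told apart here. Neither the labels nor the methods say that the 5 libraries of a group came from separate mice or cultures, so the p-values measure only the spread between these libraries, which may be technical.

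A dividing cell passes through G1, S, G2 and M phase. In G1, D-type cyclins with Cdk4 or Cdk6, and then cyclin E with Cdk2, phosphorylate the retinoblastoma protein, which releases E2F factors to switch on replication genes. In S phase the MCM helicase unwinds DNA and nucleotide-making enzymes feed the polymerases, and in G2 and M phase cyclins A and B with Cdk1, the Aurora and Polo kinases, checkpoint proteins and kinesin motors drive chromosome segregation and cytokinesis. CDK inhibitors of the Cip/Kip and INK4 families hold these kinases back. Macrophages elicited by thioglycollate derive largely from recruited monocytes, and most divide little in culture. LPS is known to hold proliferating macrophages in G1. In bulk RNA, fewer dividing cells and less RNA per cell cannot be told apart.

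The promoters of several members are shown because the groups below differ in the elements they hold. The sequences are from RefSeq (GRCm38.p6) and run 5′ to 3′ on the gene's strand over 300 bases, from 250 before to 50 after the start. Capitals mark letters found by search on both strands: the E2F site as TTTCCCGC, TTTCGCGC, TTTGCCGC or TTTGGCGC, the CHR (cell cycle genes homology region, an element known from late cell cycle promoters) as TTTGAA or TTCGAA, and the CCAAT box as CCAAT. E2F matches could overlap each other, and none of the other motifs holds another. Kif23 (chr9:61946750-61947049, minus strand) is shown because it was the one member called lower and holds 1 CHR and 1 CCAAT box. Ccnb2 (chr9:70421505-70421804, minus strand) and Mki67 (chr7:135716330-135716629, minus strand) are shown because each holds 2 CHR and 3 CCAAT matches while their log2 fold changes had opposite signs. Mcm6 (chr1:128359656-128359955, minus strand) represents the replication genes with 3 E2F matches and 2 CCAAT boxes. Ccne1 (chr7:38107441-38107740, minus strand), one of the members called higher, held none of these letters.
Kif23: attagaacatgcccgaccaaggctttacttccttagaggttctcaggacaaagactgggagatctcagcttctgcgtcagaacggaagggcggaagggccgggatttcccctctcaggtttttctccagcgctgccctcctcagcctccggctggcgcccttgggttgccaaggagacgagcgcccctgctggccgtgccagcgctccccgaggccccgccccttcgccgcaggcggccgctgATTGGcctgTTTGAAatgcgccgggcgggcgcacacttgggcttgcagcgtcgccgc
Ccnb2: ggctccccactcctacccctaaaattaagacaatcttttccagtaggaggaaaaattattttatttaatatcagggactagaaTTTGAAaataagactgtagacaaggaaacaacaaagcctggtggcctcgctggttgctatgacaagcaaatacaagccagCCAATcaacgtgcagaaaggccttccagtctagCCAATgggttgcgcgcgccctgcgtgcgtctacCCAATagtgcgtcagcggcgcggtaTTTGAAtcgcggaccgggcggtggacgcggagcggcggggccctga
Mki67: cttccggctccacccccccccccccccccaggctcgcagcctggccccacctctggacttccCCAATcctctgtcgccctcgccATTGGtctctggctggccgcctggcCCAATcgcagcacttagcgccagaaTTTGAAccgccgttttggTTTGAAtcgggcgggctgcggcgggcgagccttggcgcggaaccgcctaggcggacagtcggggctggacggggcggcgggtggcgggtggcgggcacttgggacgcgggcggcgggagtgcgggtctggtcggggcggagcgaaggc
Mcm6: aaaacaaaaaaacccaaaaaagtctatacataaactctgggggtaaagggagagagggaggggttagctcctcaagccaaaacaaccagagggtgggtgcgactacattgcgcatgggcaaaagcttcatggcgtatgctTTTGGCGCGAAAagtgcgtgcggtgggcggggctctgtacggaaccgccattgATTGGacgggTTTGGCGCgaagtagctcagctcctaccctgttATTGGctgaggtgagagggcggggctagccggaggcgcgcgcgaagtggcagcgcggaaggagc
Ccne1: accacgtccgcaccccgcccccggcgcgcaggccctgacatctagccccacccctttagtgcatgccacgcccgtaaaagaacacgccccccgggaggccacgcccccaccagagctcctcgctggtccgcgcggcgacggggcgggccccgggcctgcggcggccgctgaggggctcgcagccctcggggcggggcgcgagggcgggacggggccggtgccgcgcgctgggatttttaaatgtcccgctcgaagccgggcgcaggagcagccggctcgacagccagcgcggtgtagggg

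The table held a promoter for 36 of the 42 members, 11 of the replication genes, 12 of the mitosis genes, 10 of the cyclins, CDKs and E2F factors and all 3 inhibitors. An E2F site stood in 5 of the 11 replication genes (Mcm3, Mcm5, Mcm6, Mcm7 and Uhrf1), in none of the 12 mitosis genes, and in 3 of the 10 cyclin, CDK and E2F genes (E2f2, Cdk1 and Cdk2), against 2.6% of all 27025 genes in the table. A CHR stood in 10 of the 12 mitosis genes, in 2 of the 11 replication genes and in 3 of the 10 cyclin, CDK and E2F genes, against 21.7% of all genes. Each of the 10 mitosis promoters with a CHR also held a CCAAT box, and the pair occurred in 8.61% of all genes. The mitosis genes without a CHR in this window were Cenpe and Birc5. A match is a description of letters and not of a bound factor.

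The libraries differed in ways that touch these genes. Total counts were even, from 20094647 to 20687289 in the controls and from 19257131 to 20358017 in the ox-LDL group. Levels are given as CPM, counts scaled to a common library size with the TMM factor of each library, which was between 0.837 and 1.193 in 9 libraries and was 0.593 in ox-LDL replicate 2. Control replicate 1 gave the highest control level for 30 of the 42 members, where it was the highest control for 26.9% of all 12654 genes tested. It led in 12 of the 13 mitosis genes, 9 of the 12 replication genes, 8 of the 14 cyclin, CDK and E2F genes and 1 of the 3 inhibitors. Its level divided by the median of the other controls had a median of 3.78 over the mitosis genes, 1.72 over the replication genes, 1.55 over the cyclins, CDKs and E2F factors and 1.02 over the inhibitors, against 0.993 over all genes. In the ox-LDL group, replicate 2 gave the lowest level for 30 of the 42 members, against 38% of all genes. Deviations from the group mean followed gene length in 9 of the 10 libraries. Short genes were higher in controls 1 and 4 and in ox-LDL 2 (Spearman correlation across genes of -0.57, -0.47 and -0.65, a description of these libraries), and long genes were higher in controls 2, 3 and 5 and ox-LDL 1, 3 and 4 (0.32 to 0.52). After a trend on length was removed from every library, control 1 was the highest control for 32 of 41 members. The share over all genes was not computed for these values, so this count has nothing to be read against. In the mm9 annotation Mcm7, Tyms, Tk1, Top2a, Cdc20, Ccnd1, Ccnd2, Ccnd3, Ccne2, Ccna2, Cdk4 and Cdk6 overlap a gene on the other strand, and Pcna, Ccnd3 and Ccnb2 have annotated pseudogenes, so reads of these members are less certain.

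Most cell cycle genes had a lower mean in ox-LDL-treated macrophages, but few differences passed the test. Genes were tested across the whole table by edgeR's quasi-likelihood test, with Benjamini-Hochberg adjustment over 12654 genes, and called at an adjusted p below 0.01. Of the 42 members 41 passed the filter on low counts. Only 1 member was called lower, Kif23, where 5.35% of all genes were called lower, and 2 were called higher, Ccnd2 and Ccne1, where 9.4% of all genes were called higher. All 3 had an absolute log2 fold change above 2, a size and threshold passed by 1.93% of all genes downward and 4.78% upward. At an adjusted p below 0.05, 6 members were lower against 10.4% of all genes, and the 2 higher members stood against 16.2%. The log2 fold change (ox-LDL minus control) was negative for 34 of the 41 tested members and for 43.8% of all genes. Its median was -0.69 over the tested members and 0.10 over all genes. The medians were -0.91 over the 12 tested mitosis genes, -0.70 over the 14 cyclins, CDKs and E2F factors, -0.58 over the 12 replication genes and -0.03 over the 3 inhibitors. Without control replicate 1 the same 3 genes were called, 30 of 41 fold changes were negative, and the medians were -0.39 over the tested members, -0.57 for mitosis, -0.41 for replication and -0.11 for cyclins, CDKs and E2F factors. Scaling moved the median of all genes from 0.10 with TMM to -0.09 with library size alone. Relative to it the members' median was -0.79 with TMM and -0.70 with library size alone. Other settings moved this difference more. It was -0.50 without control 1, where the median of all genes was 0.11. It was -1.03 with no filter on low counts and -0.35 by limma on length-scaled values, as log2(FPKM + 1), with 27 members tested.

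**Figure D1:**
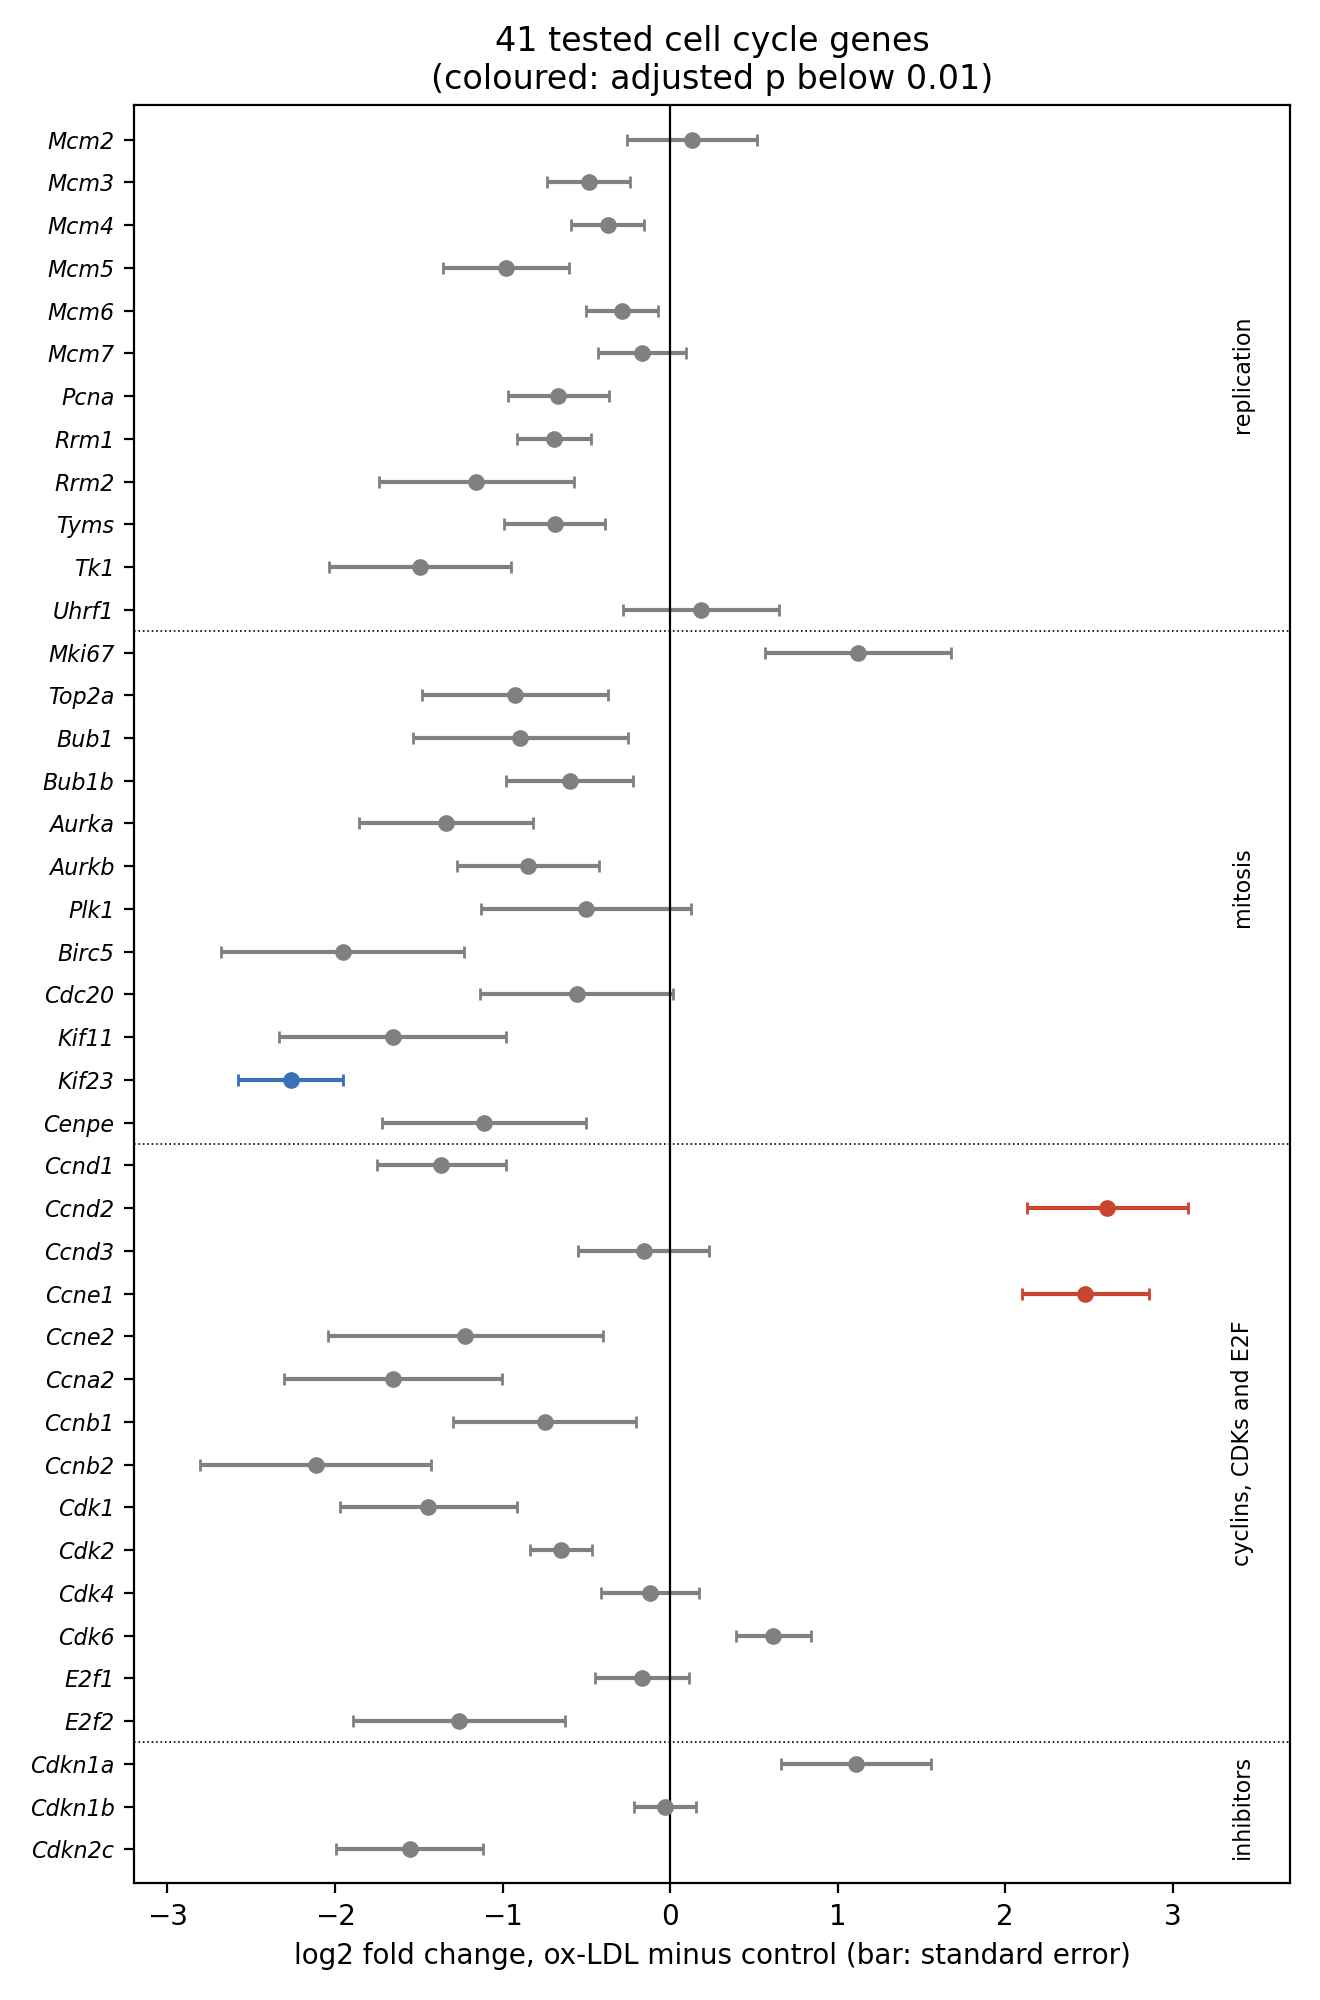
Log2 fold change (ox-LDL minus control, x axis) of the 41 tested cell cycle genes (rows, grouped by role), with bars for the standard error. Kif23 in blue was called lower, Ccnd2 and Ccne1 in red were called higher, and 34 of the 41 points lie left of 0.

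The kinesin Kif23, which bundles microtubules at the midbody and is needed for cytokinesis, had the clearest decrease. Its gene lies on mm9 chr9:61765087-61794606 (minus strand) and overlaps no other annotated gene. The 5 controls held 8.02, 3.72, 5.18, 4.02 and 4.34 CPM and the 5 ox-LDL libraries 1.17, 0.771, 0.927, 1.53 and 0.776 CPM. The groups did not overlap, as for 9.11% of all genes with ox-LDL below control, and control 1 was the highest. The mean was 5.06 ± 1.74 CPM (SD, n = 5) in the controls and 1.04 ± 0.322 CPM (SD, n = 5) in the ox-LDL group. This was a log2 fold change of -2.26 (SE 0.32, edgeR adjusted p = 0.000336). It was -2.05 without control 1 (adjusted p = 0.00104) and -2.23 without ox-LDL 2 (adjusted p = 0.000369). The counts behind it were 78 to 145 in the controls and 9 to 32 in the ox-LDL libraries.

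The other mitosis genes did not pass the threshold. Control 1 was the highest control for each of them but Bub1b, whose controls held 5.82 to 9.97 CPM with control 2 highest. Birc5, which encodes survivin of the chromosomal passenger complex, stood at 17.6 CPM in control 1 and at 1.20, 4.06, 2.73 and 1.04 CPM in controls 2 to 5, and at 0.717 to 2.17 CPM in the ox-LDL group (log2 fold change -1.95, SE 0.73, edgeR adjusted p = 0.0664). The ox-LDL values thus lay within the range of controls 2 to 5 apart from the lowest. Kif11, the motor that separates the spindle poles, ranged from 1.33 to 7.97 CPM in the controls and from 0 to 1.44 CPM in the ox-LDL group, with 0 counts in ox-LDL 2. Aurka, the centrosomal Aurora kinase, was at 1.13 to 6.64 CPM in the controls and 0.257 to 1.74 CPM in the ox-LDL group. Both groups overlapped for these genes, and the log2 fold changes were -1.66 for Kif11 and -1.34 for Aurka. Without control 1 they were -0.73 for Birc5, -1.07 for Kif11 and -0.88 for Aurka.

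The remaining mitosis genes had smaller differences. The log2 fold change was -1.11 for Cenpe, a kinetochore kinesin, -0.93 for Top2a, the topoisomerase that untangles sister chromatids, and -0.89 for the checkpoint kinase Bub1. It was -0.85 for Aurkb, the kinase of the passenger complex, -0.60 for the checkpoint protein Bub1b, -0.56 for Cdc20, which activates the anaphase-promoting complex, and -0.50 for the Polo kinase Plk1. None of these 7 passed, with adjusted p-values of 0.164 to 0.601 by edgeR. Without control 1 the values were -0.56 for Cenpe, -0.39 for Top2a and -0.18 for Bub1, and Plk1 (0.046) and Cdc20 (0.086) changed sign. Bub1b was -1.03 without ox-LDL 5. Cenpf, a kinetochore protein, was left out by the filter. Its counts were 55, 7, 37, 12 and 2 in the controls and 10, 1, 8, 7 and 2 in the ox-LDL group. The mean TMM-scaled levels were 1.13 and 0.273 CPM (two-sided exact permutation p = 0.167 for the difference in mean CPM, over all arrangements of the libraries).

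Mki67 ran against the other mitosis genes. It encodes Ki-67, a surfactant of mitotic chromosomes that is widely used as a proliferation marker. The controls held 17.6, 3.72, 9.46, 5.05 and 2.09 CPM and the ox-LDL libraries 15.1, 4.02, 21.6, 21.1 and 20.4 CPM. Ox-LDL replicates 3, 4 and 5 exceeded every control, and ox-LDL 2 lay among the low controls. The mean was 7.59 ± 6.25 CPM in the controls and 16.4 ± 7.41 CPM in the ox-LDL group (SD, n = 5 each), and the log2 fold change of 1.12 (SE 0.56) did not pass (edgeR adjusted p = 0.16). Without control 1 it was 1.69 (adjusted p = 0.0413), and with controls 1 and 5 and ox-LDL 2 left out together, a choice made after the values were seen, 1.63 (adjusted p = 0.00486). It was 0.58 with the trend on gene length removed (adjusted p = 0.457) and 0.65 by limma on log2(FPKM + 1) (adjusted p = 0.182). The Mki67 model is long, at 7862 bases. Those of Cenpe (7570 bases) and Cenpf (10433 bases) are long too, and both genes were lower in the ox-LDL mean. Whether length has a part in the Mki67 values was not tested. Within the controls, Mki67 followed the other mitosis genes, with control 1 highest and control 3 next, as in Top2a, Bub1, Aurka, Birc5, Kif11 and Cenpe. In the ox-LDL group replicate 3 held the most Mki67, whereas replicate 1 held the most Birc5 and Aurka. The difference between Mki67 and the other mitosis genes was not tested.

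**Figure D2:**
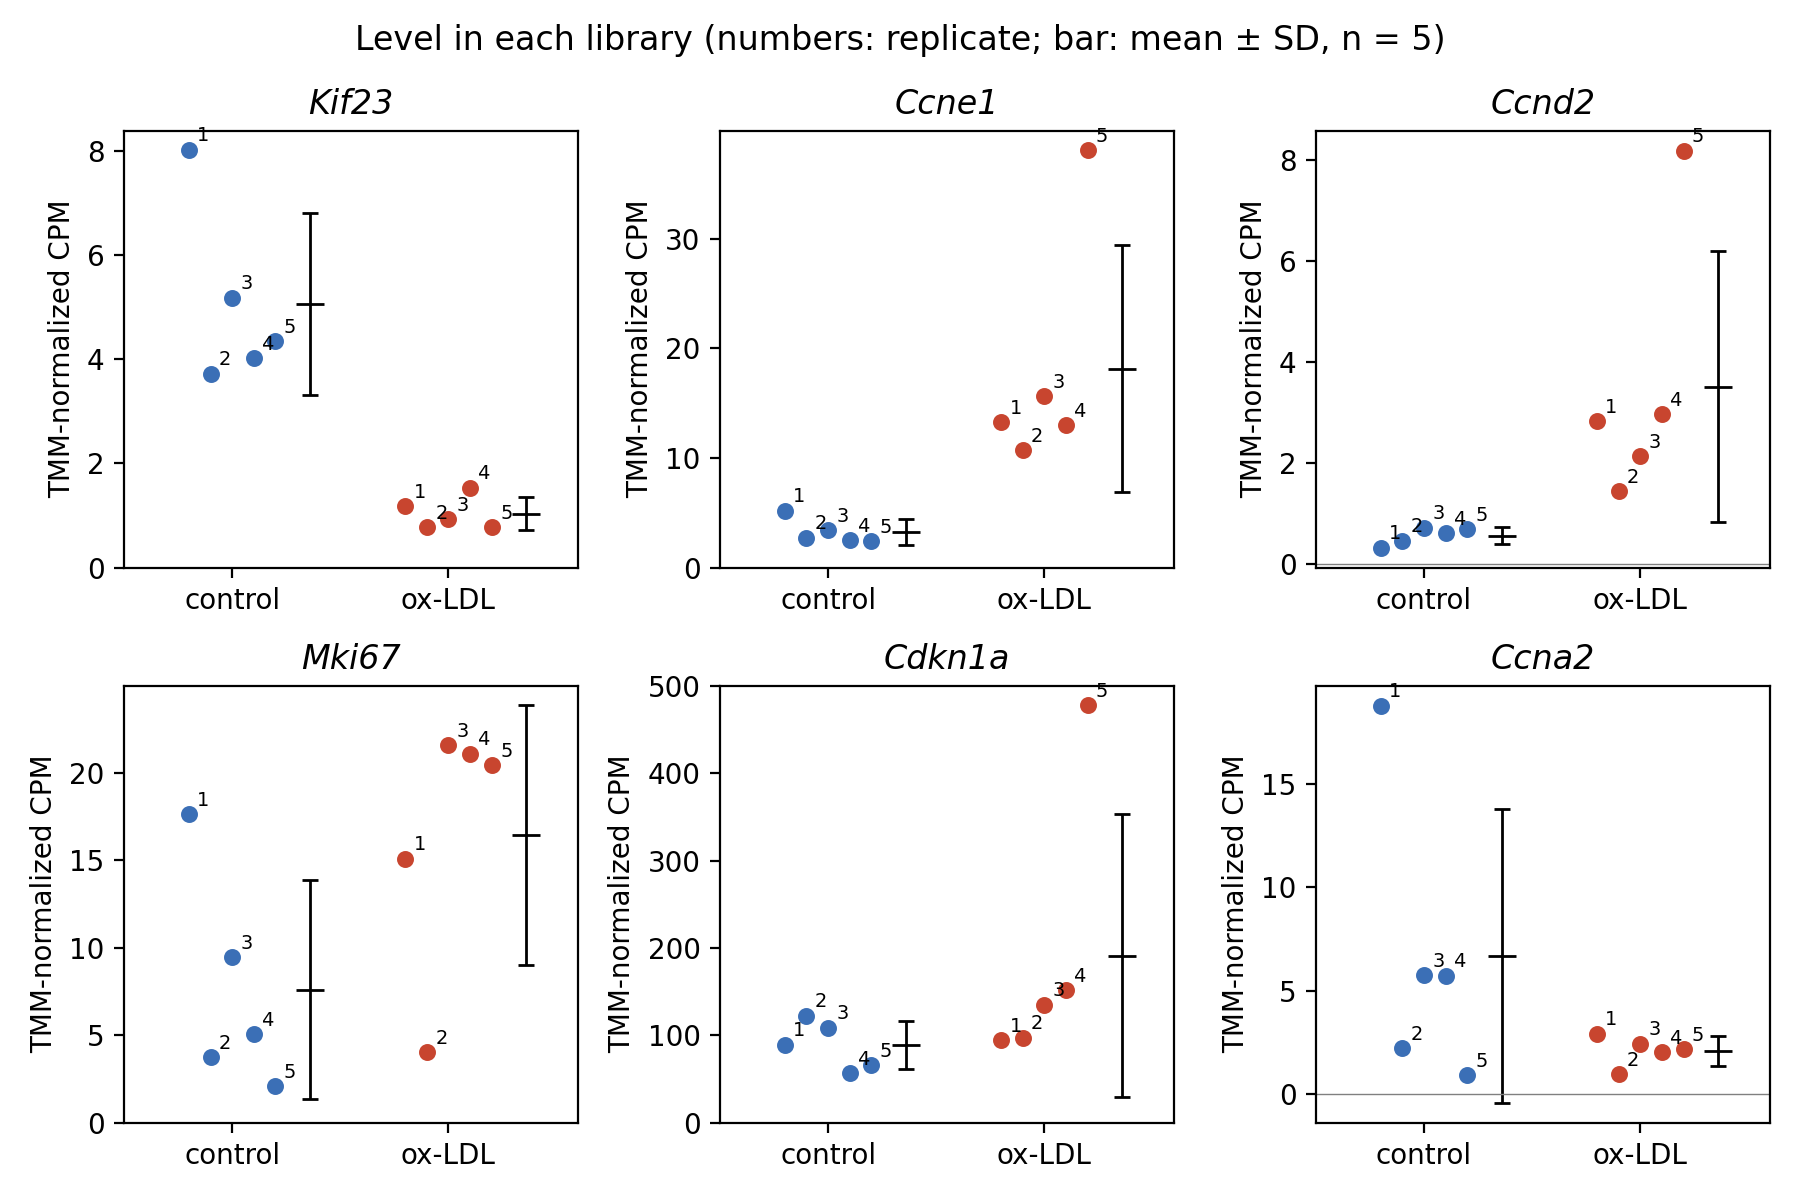
TMM-normalized CPM (y axes, each from 0 or just below) of 6 genes in each library, with replicate numbers, controls in blue and ox-LDL in red, and the mean ± SD of each group in black. Kif23, Ccne1 and Ccnd2 separate the groups, while Mki67, Cdkn1a and Ccna2 overlap, with ox-LDL 5 apart for Cdkn1a and control 1 for Ccna2.

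Among the G1 cyclins, Ccnd2 and Ccne1 were upregulated, while Ccnd1 and Ccnd3 did not pass. Ccnd2, cyclin D2, held 0.332, 0.471, 0.727, 0.618 and 0.695 CPM in the controls and 2.83, 1.46, 2.15, 2.97 and 8.18 CPM in the ox-LDL libraries. The groups did not overlap, with ox-LDL above control as for 11.6% of all genes, and ox-LDL 5 was the highest. The means were 0.569 ± 0.165 CPM and 3.52 ± 2.68 CPM (SD, n = 5 each), with a log2 fold change of 2.61 (SE 0.48, edgeR adjusted p = 0.0019), and of 2.02 without ox-LDL 5 (adjusted p = 0.00148). Ccnd2 was a low gene, with 6 to 17 counts in the controls and 17 to 137 counts in the ox-LDL libraries. On deposited length-scaled values with no filter, as log2(FPKM + 1), the difference was 0.51 and the call was lost (limma adjusted p = 0.0557). Ccnd2 (mm9 chr6:127075797-127101066, minus strand) overlaps a long noncoding RNA on the other strand, 9330179D12Rik, and whether counting used the strand is not given in the sources used here.

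Ccne1, cyclin E1, which with Cdk2 drives entry into S phase, rose to the higher level of the pair. The controls held 5.20, 2.74, 3.42, 2.52 and 2.39 CPM and the ox-LDL libraries 13.3, 10.7, 15.6, 13.01 and 38.0 CPM. The groups were apart, with ox-LDL 5 above the other ox-LDL libraries. The means were 3.25 ± 1.16 CPM and 18.1 ± 11.3 CPM (SD, n = 5 each) and the log2 fold change was 2.48 (SE 0.38, edgeR adjusted p = 0.000637). It was 2.00 without ox-LDL 5 (adjusted p = 0.000372). Ccne1 (mm9 chr7:38883003-38892553, minus strand) overlaps no other annotated gene. Its paralogue Ccne2, cyclin E2, went the other way in the mean, from 2.08 ± 2.88 to 0.855 ± 0.621 CPM (log2 fold change -1.22, SE 0.82, edgeR adjusted p = 0.299). The control mean of Ccne2 rested on control 1 at 7.19 CPM, where the other controls held 0.391 to 1.24 CPM, and without control 1 the log2 fold change was 0.13.

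Ccnd1, cyclin D1, held 6.25, 3.85, 7.40, 2.83 and 3.43 CPM in the controls and 2.48, 0.685, 2.15, 2.39 and 1.37 CPM in the ox-LDL libraries. The groups did not overlap, although the lowest control and the highest ox-LDL library were close. A log2 fold change of -1.37 (SE 0.39) missed the threshold (edgeR adjusted p = 0.0211). Ccnd3, cyclin D3, was at 13.1 to 21.3 CPM in the controls, and in the ox-LDL group it fell into low libraries (6.15, 7.42 and 10.3 CPM in replicates 3, 4 and 2) and high ones (24.5 and 25.3 CPM in replicates 5 and 1). Its log2 fold change was -0.16 (SE 0.39, edgeR adjusted p = 0.808).

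No CDK or E2F gene was called. Cdk4, the most abundant gene of this group and the partner of D-type cyclins, held 162 to 231 CPM in the controls and 110.5 to 337 CPM in the ox-LDL group, with ox-LDL 2 highest (log2 fold change -0.12, SE 0.29, edgeR adjusted p = 0.805). Without ox-LDL 2 it was -0.50 (adjusted p = 0.0508). Cdk6, its close relative, had a log2 fold change of 0.62 (SE 0.22, edgeR adjusted p = 0.0617), with means of 21.9 ± 5.61 CPM and 33.6 ± 7.65 CPM (SD, n = 5 each). Cdk2, the partner of cyclins E and A, was at 14.6, 12.8, 12.5, 13.8 and 13.9 CPM in the controls and at 10.7, 5.99, 7.90, 10.2 and 8.24 CPM in the ox-LDL libraries. Every ox-LDL library lay below every control, and the controls were tight. Cdk2 had a log2 fold change of -0.65 (SE 0.18, edgeR adjusted p = 0.0218). E2f1 and E2f2, activator E2F factors, had log2 fold changes of -0.17 (SE 0.28) and -1.26 (SE 0.63), and neither passed. E2f2 was at 0.257 to 0.718 CPM in 4 ox-LDL libraries and at 2.70 CPM in ox-LDL 1.

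The cyclins of S, G2 and M phase and Cdk1 were not called either. Ccna2, cyclin A2, held 18.8, 2.23, 5.73, 5.72 and 0.912 CPM in the controls and 2.91, 0.942, 2.44, 2.01 and 2.15 CPM in the ox-LDL libraries. Control 1 stood apart and control 5 was as low as the lowest ox-LDL library. Log2 fold changes were -1.65 (SE 0.65) for Ccna2, -0.75 (SE 0.54) for Ccnb1 (cyclin B1), -2.11 (SE 0.69) for Ccnb2 (cyclin B2) and -1.44 (SE 0.53) for their kinase Cdk1. Ccnb2 came nearest to the threshold (edgeR adjusted p = 0.0402). Without control 1 these values were -0.79 for Ccna2, -0.081 for Ccnb1, -1.06 for Ccnb2 (adjusted p = 0.139) and -0.68 for Cdk1. Cdk1 held 23.0 CPM in control 1, 2.61 to 8.29 CPM in the other controls and 2.54 to 4.39 CPM in the ox-LDL group. Ox-LDL 2, the lowest ox-LDL library for 11 of the 13 mitosis genes, was the second highest of its group for Ccnb1 and Cdk1.

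**Figure D3:**
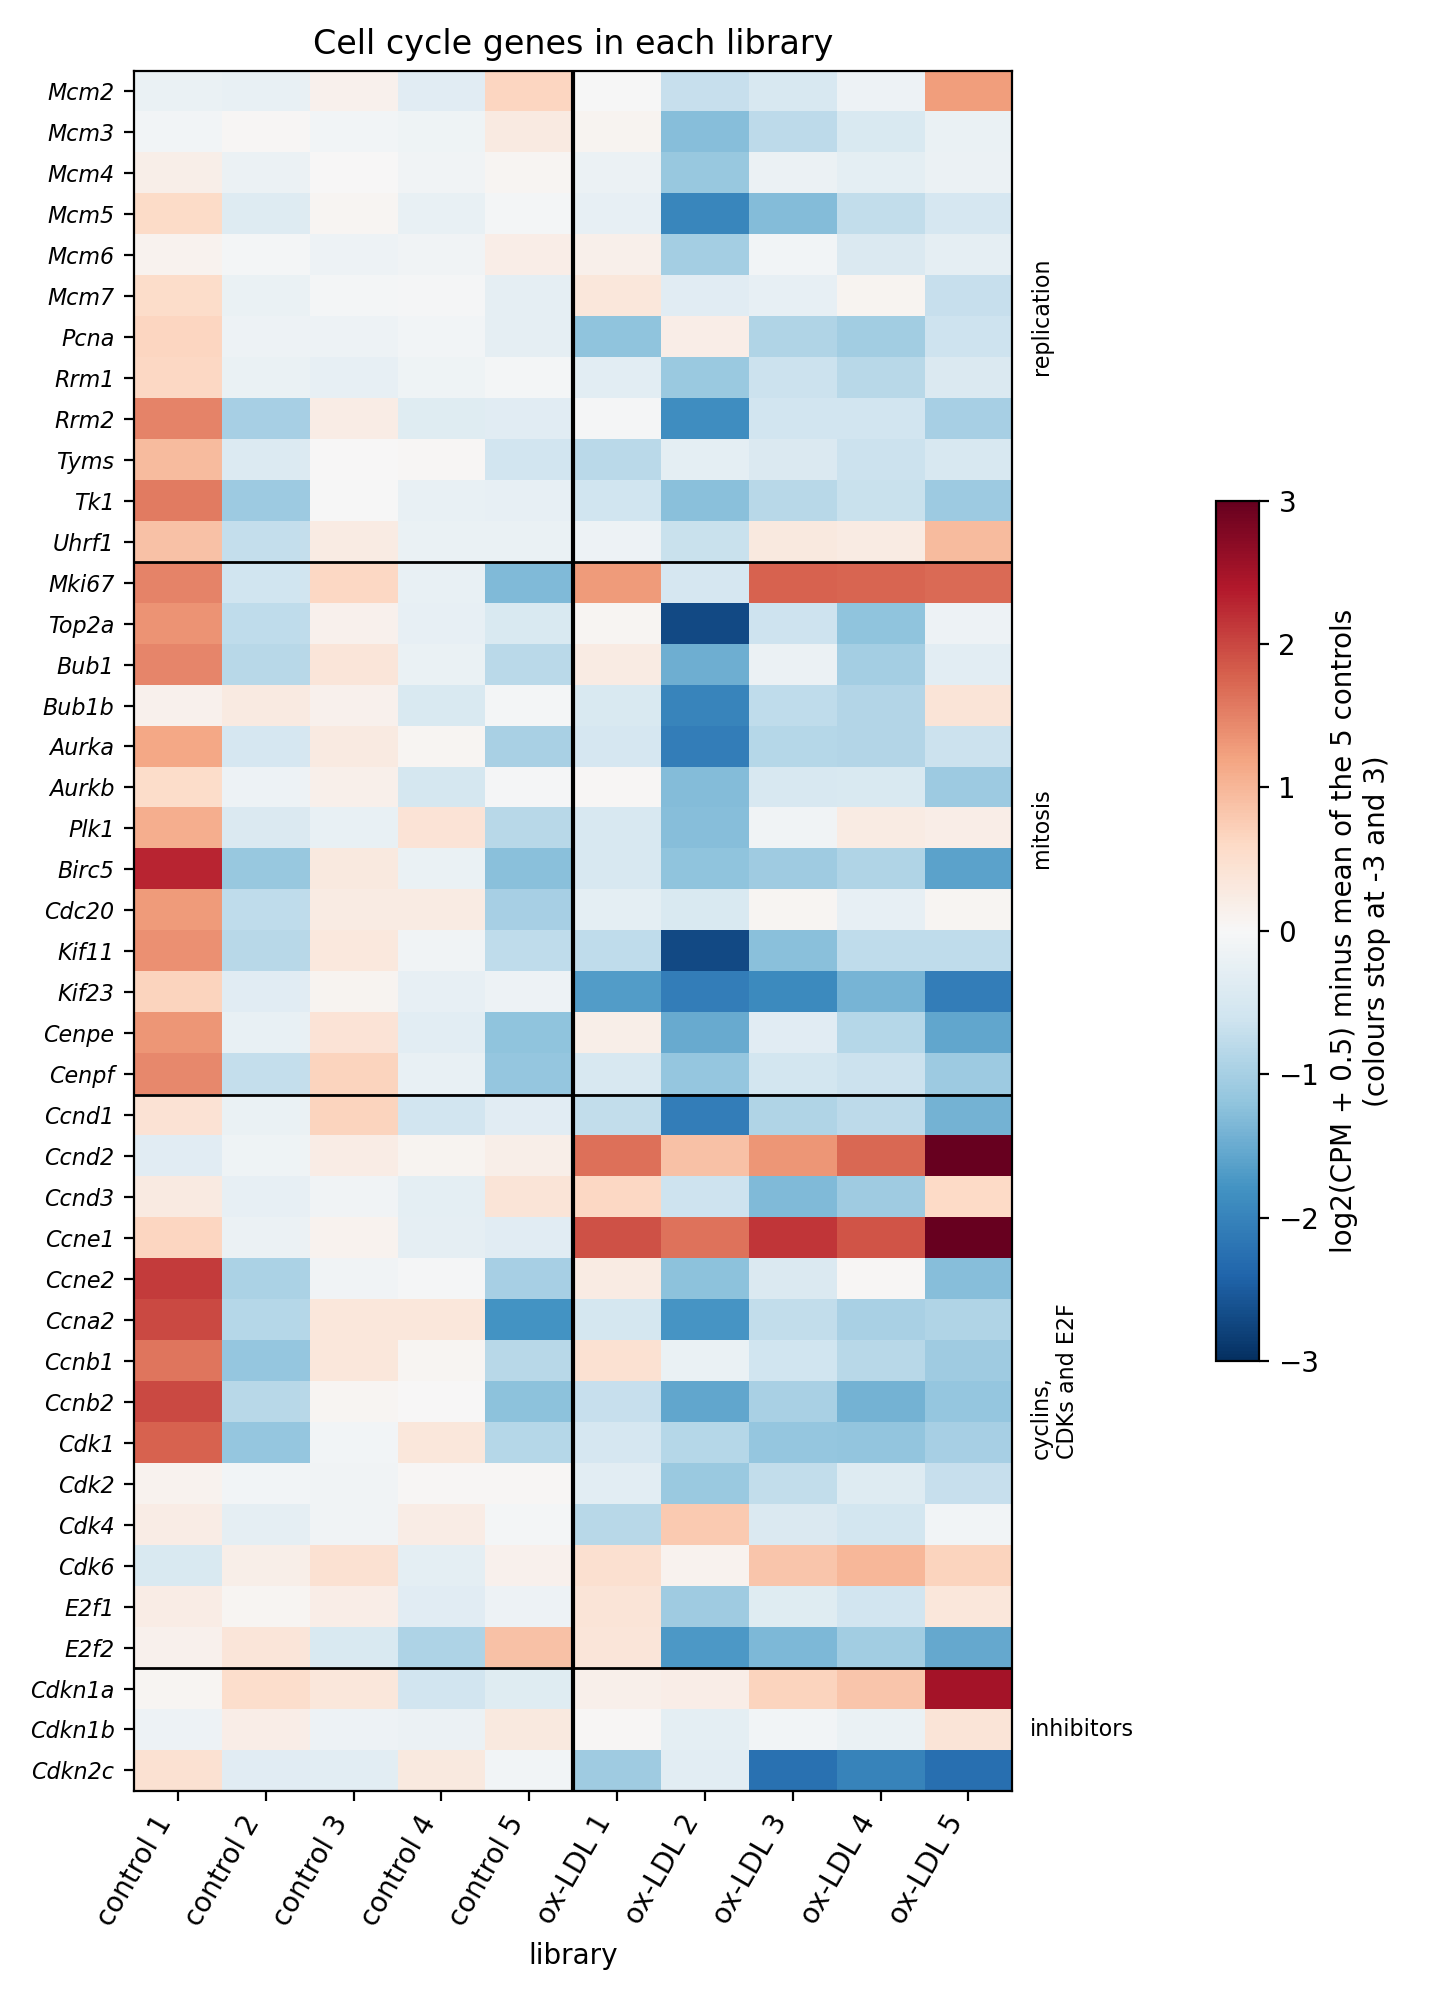
Level of each of the 42 genes (rows, by role) in each of the 10 libraries (columns), as log2(CPM + 0.5) minus the mean of the 5 controls, in red for higher and blue for lower, with colours that stop at -3 and 3. Control 1 is red across most mitosis genes, cyclins A and B and Cdk1, ox-LDL 2 is the lowest ox-LDL library for 30 of the 42 genes, and Ccnd2, Ccne1 and Mki67 stand out in red among the ox-LDL libraries.

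No replication gene was called. For the helicase subunits log2 fold changes were 0.13 for Mcm2, -0.49 for Mcm3, -0.37 for Mcm4, -0.98 for Mcm5, -0.29 for Mcm6 and -0.17 for Mcm7, with edgeR adjusted p-values of 0.073 to 0.841. Mcm5 held 7.41, 3.55, 5.05, 4.07 and 4.60 CPM in the controls and 3.96, 0.856, 1.66, 2.68 and 3.23 CPM in the ox-LDL libraries, which overlapped only through control 2 and ox-LDL 1. Mcm4 had no overlap, at 7.83 to 10.1 CPM in the controls and 3.77 to 7.80 CPM in the ox-LDL group, with an adjusted p of 0.23. Uhrf1, which guides maintenance DNA methylation at the fork, was at 1.51 ± 0.881 CPM in the controls and 1.70 ± 0.908 CPM in the ox-LDL group (SD, n = 5 each). The sign for Mcm2 rested on ox-LDL 5 at 15.5 CPM, since the log2 fold change was -0.40 without it.

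Genes for nucleotide supply were lower in the mean. Rrm1, the large subunit of ribonucleotide reductase, held 49.2, 27.6, 26.9, 29.3 and 30.5 CPM in the controls and 25.3, 14.4, 20.2, 17.7 and 23.2 CPM in the ox-LDL libraries. The groups did not overlap, and the log2 fold change was -0.69 (SE 0.22, edgeR adjusted p = 0.0366). The small subunit Rrm2 (-1.16, SE 0.58), thymidylate synthase Tyms (-0.69, SE 0.30) and thymidine kinase Tk1 (-1.49, SE 0.54) had control 1 as a high library, and none passed. Without control 1 their log2 fold changes were -0.48, -0.35 and -0.74.

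Pcna, the sliding clamp of the replicative polymerases, was the most abundant member per length. It held 578, 331, 331, 349 and 305 CPM in the controls and 159, 420, 197, 179.7 and 237 CPM in the ox-LDL libraries. On TMM-scaled CPM the groups overlapped through ox-LDL 2, which stood above 4 controls, while the other 4 ox-LDL libraries lay below every control. Ox-LDL 2 had the TMM factor of 0.593, and its unscaled count of 4907 lay below the 6772 to 10443 of the controls. The log2 fold change was -0.67 (SE 0.30, edgeR adjusted p = 0.126). Without ox-LDL 2 it was -1.01 and was called (adjusted p = 0.00433), and without control 1 it was -0.47 (adjusted p = 0.298). Pcna was also called with library size alone, with the length trend removed (edgeR adjusted p = 0.00991) and in each limma fit on FPKM. On the deposited FPKM, which are scaled by library size and gene length, Pcna was at 342 ± 64.0 in the controls and 181 ± 19.6 in the ox-LDL group (SD, n = 5 each).

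The 3 inhibitors differed from each other. Cdkn1a, p21 of the Cip/Kip family and a classical p53 target, held 89.1, 123, 109, 56.7 and 65.9 CPM in the controls and 94.6, 97.3, 135, 152 and 478 CPM in the ox-LDL libraries. Ox-LDL 5 stood far above the rest, and ox-LDL 1 and 2 lay among the controls. Its log2 fold change was 1.11 (SE 0.45, edgeR adjusted p = 0.0872) and 0.42 without ox-LDL 5 (adjusted p = 0.264). Cdkn1b, p27 of the same family, was nearly level at 19.7 ± 3.32 and 19.3 ± 3.84 CPM (SD, n = 5 each), with a log2 fold change of -0.03 (SE 0.19). Cdkn2c, p18 of the INK4 family that binds Cdk4 and Cdk6, held 12.0, 6.63, 6.76, 10.5 and 8.04 CPM in the controls and 3.83, 6.76, 1.41, 1.77 and 1.37 CPM in the ox-LDL libraries. On TMM-scaled CPM only ox-LDL 2 reached the controls, while its unscaled count of 79 lay below the 155 to 217 of the controls. Cdkn2c had a log2 fold change of -1.56 (SE 0.44, edgeR adjusted p = 0.0209), and it was -2.10 and called without ox-LDL 2 (adjusted p = 0.000759).

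Compared per length on the deposited FPKM, the cell cycle genes spanned a wide range of levels. Pcna, Cdk4 (174 ± 12.4 in the controls and 130.3 ± 20.2 in the ox-LDL group) and Cdkn1a (53.9 ± 20.4 and 98.9 ± 73.8) were the most abundant. The mitosis genes were low, with means of 0.108 to 6.00 FPKM in the controls and 0.0280 to 2.19 FPKM in the ox-LDL group, Birc5 being the highest in the controls and Mki67 in the ox-LDL group. Among D-type cyclins the mean order was Ccnd3 (9.77), Ccnd1 (1.39) and Ccnd2 (0.19) in the controls and Ccnd3 (8.02), Ccnd2 (0.724) and Ccnd1 (0.644) in the ox-LDL group, where Ccnd2 and Ccnd1 lay within their SDs of 0.372 and 0.229. Ccne1 had a mean of 1.88 ± 0.511 FPKM in the controls and of 9.31 ± 5.07 FPKM in the ox-LDL group, which there was near the level of Ccnd3.

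The role groups were compared by library as the mean of log2(CPM + 0.5) over their genes, relative to the control mean. For the mitosis genes the controls stood at 1.20, -0.54, 0.27, -0.16 and -0.77 and the ox-LDL libraries at -0.26, -1.57, -0.49, -0.56 and -0.53. Controls 2 and 5 lay within the range of the ox-LDL libraries, and ox-LDL 2 was the lowest of all. For the replication genes the controls stood at 0.60, -0.38, 0.00, -0.16 and -0.07 and the ox-LDL libraries at -0.25, -0.95, -0.51, -0.46 and -0.28. Control 2 overlapped the ox-LDL range here and the other 4 controls did not. For the cyclins, CDKs and E2F factors the ox-LDL libraries, at -0.63 to 0.18, lay within the controls, at -0.39 to 0.76, apart from ox-LDL 2. For the inhibitors the ox-LDL libraries ranged from -0.55 to 0.20 and the controls from -0.16 to 0.13.

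**Figure D4:**
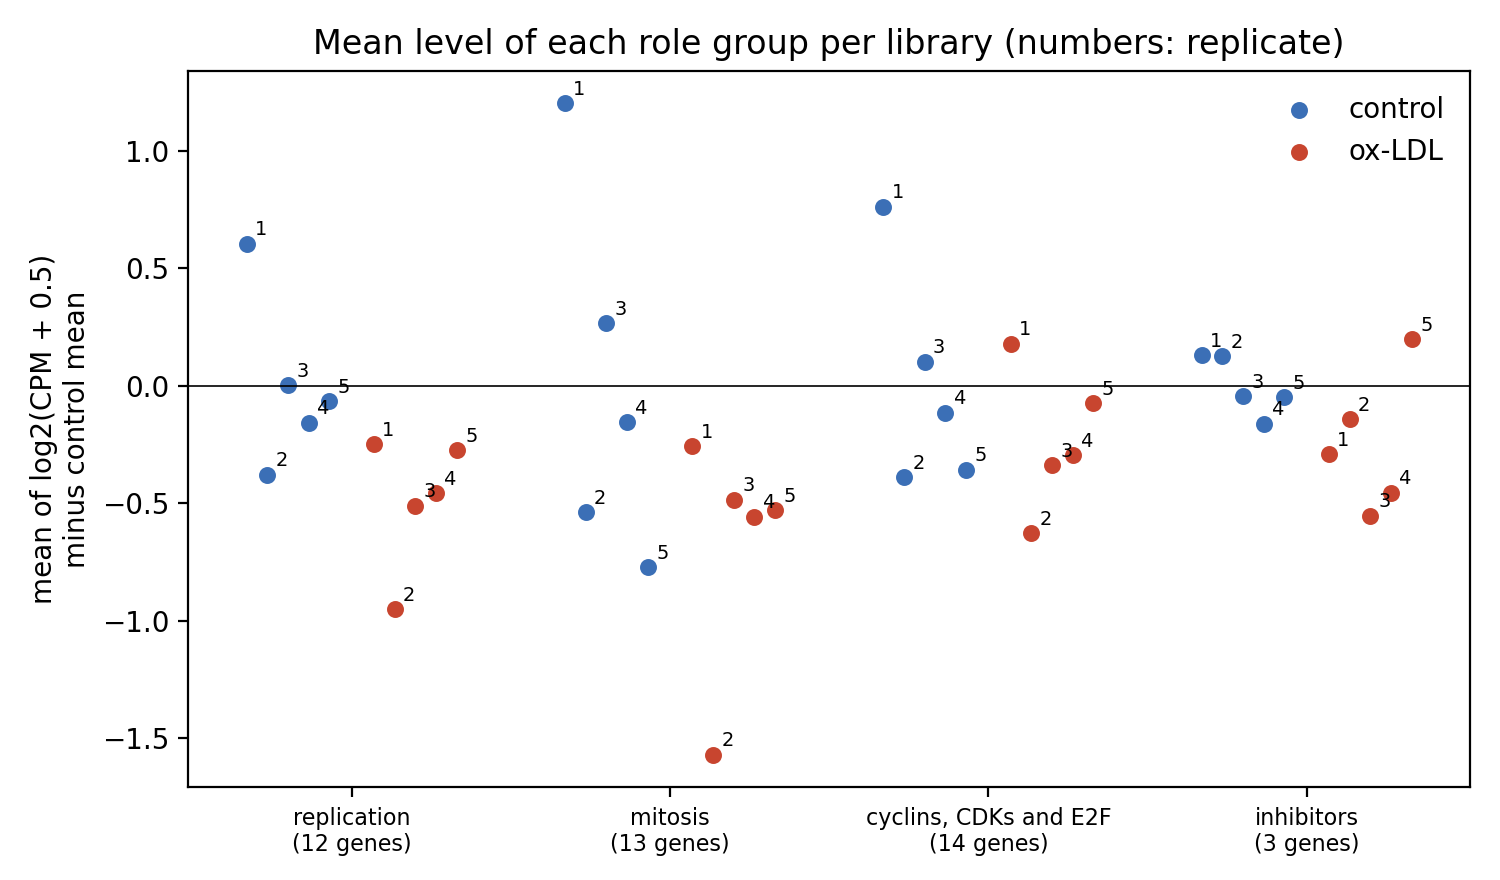
Mean of log2(CPM + 0.5) over the genes of each role, minus the control mean (y axis), for each of the 5 control libraries in blue and the 5 ox-LDL libraries in red, with replicate numbers. Control 1 is the highest library for replication, mitosis and cyclins, ox-LDL 2 is the lowest for these, and controls 2 and 5 lie among the ox-LDL libraries for mitosis.

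Other genes of the same pathways gave calls in both directions, to be read against the 5.35% of all genes called lower and the 9.4% called higher. Of 49 further origin licensing and replication genes 47 were tested, 2 were called lower and 3 higher, with a median log2 fold change of -0.15. The lower genes were Pole2, a subunit of polymerase epsilon (7.36 ± 1.46 to 3.11 ± 1.12 CPM, log2 fold change -1.25), and the nuclease and helicase Dna2 (14.2 ± 2.80 to 6.56 ± 1.84 CPM, -1.11). The higher genes were Pola2, a subunit of the polymerase alpha and primase complex (4.76 ± 0.933 to 19.4 ± 5.49 CPM, 2.02), the polymerase delta subunit Pold3 (40.1 ± 4.07 to 67.2 ± 8.19 CPM, 0.75) and the chromatin assembly subunit Chaf1b (0.62), which was named after its value was seen. Of 57 further spindle, kinetochore and cytokinesis genes 50 were tested, 2 were called lower and 1 higher, and the median was -0.86. Stmn1, the tubulin-binding protein stathmin, fell from 33.4 ± 18.1 to 7.45 ± 2.65 CPM (-2.16), Cdca3 fell from 13.4 ± 13.7 to 2.19 ± 0.551 CPM (-2.62), and Fzr1, the Cdh1 activator of the anaphase-promoting complex, rose from 8.31 ± 1.78 to 20.5 ± 10.3 CPM. In each of these genes no ox-LDL library overlapped a control, as for 9.11% of all genes downward and 11.6% upward. The genes were picked by their calls on the same values, so this is no separate support. When single libraries were left out, Stmn1 and Pola2 were called each time, whereas Pole2, Dna2, Pold3, Chaf1b, Cdca3 and Fzr1 each missed the threshold for 5 to 8 of the 10 libraries left out, with adjusted p-values up to 0.0169, 0.0144, 0.0164, 0.0328, 0.0213 and 0.0217. All 6 missed it without control 3, and Cdca3 without control 1 had a log2 fold change of -1.80. Dna2, Pold3, Chaf1b and Fzr1 were also not called with library size alone or on FPKM. The replicate block ended the calls of Dna2, Pold3, Chaf1b and Cdca3.

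Among 25 regulators of the G1 to S transition 24 were tested, and 1 was called: Lin54, a DNA-binding subunit of the DREAM complex that binds the CHR, rose from 8.65 ± 0.700 to 19.1 ± 6.67 CPM (log2 fold change 1.14, SE 0.23, edgeR adjusted p = 0.0032). Its adjusted p rose to at most 0.0112 when control 1, 2 or 4 was left out. Lin54 was also not called with library size alone or in any limma fit on FPKM. The median of these regulators was 0.03. Of 25 other CDK inhibitors and p53 target genes all were tested, 2 were called lower and 3 higher, with a median of -0.01. Sesn1, a stress-induced sestrin, fell from 108 ± 50.1 to 7.69 ± 4.15 CPM (-3.81), and Trp53inp1 fell from 30.4 ± 5.13 to 12.2 ± 4.44 CPM (-1.31). The antiproliferative gene Btg1 rose from 132 ± 12.9 to 404 ± 92.9 CPM (1.61), the kinase Plk3 rose from 1.71 ± 0.730 to 9.75 ± 5.75 CPM (2.50), and Mdm2, the ubiquitin ligase of p53, rose with a log2 fold change of 1.33 and was named after its value was seen. These 5 were called when each single library was left out. Trp53inp1 and Mdm2 were not called with library size alone or on FPKM, Mdm2 also not with the replicate block, and Plk3 not on unfiltered FPKM. Genes of this list thus moved in both directions.

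Markers of other cell types were read in the same libraries as summed CPM scaled by library size. All 8 macrophage markers were detected, and their sum was 23168 to 42854 CPM in the controls and 13363 to 28376 CPM in the ox-LDL group. Lyz2 made up most of it, with TMM-scaled means of 27793 and 17453 CPM, while 6 of the 8 genes had a positive log2 fold change. The macrophage genes Adgre1 (F4/80, log2 fold change 2.07) and Cd14 (2.24) and the resident macrophage gene Timd4 (3.22, at most 5 counts in any control) were called higher, while the resident gene Icam2 was at -1.29 with an adjusted p of 0.014. The mesothelial and stromal list was 15.9 to 51.2 CPM in the controls and 60.7 to 141 CPM in the ox-LDL group, without overlap, and Col1a1 and Dcn of its 8 genes were called higher, whereas the mesothelial gene Upk3b was at 0.524 ± 0.253 and 0.0750 ± 0.0988 CPM (SD, n = 5 each). The neutrophil list was 68.5 to 141 CPM and 93.6 to 240 CPM (S100a8 called higher), the eosinophil and mast cell list 3.11 to 12.1 CPM and 0.730 to 3.84 CPM (Siglecf called lower), and the dendritic cell list 85.0 to 401 CPM and 44.0 to 404 CPM (Clec9a called higher). Lists did not move as one. Among genes too low to be tested, Cxcr2 and Ltf of the neutrophil list and Cd209a of the dendritic cell list had every ox-LDL library below every control. So did Klrb1c of the T and NK cell list, whereas Camp of the neutrophil list had every ox-LDL library above every control (means 0.0198 and 0.540 CPM). S100a9 had at most 8 counts in any library. These genes were chosen after their values were seen. The B cell list reached at most 3.57 CPM and the T and NK cell list at most 2.15 CPM, with Cd3e, Cd3g, Ncr1 and Prg2 at 3 counts or fewer in every library. In control 1 these lists lay within the range of the other controls, apart from the highest macrophage sum and the lowest neutrophil sum. The part of these cells in the cell cycle levels was not tested.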

How the data were processed

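RNA from 5 control and 5 ox-LDL libraries was sequenced on the BGISEQ-500 platform, and groups and replicate numbers were taken from the labels. Per the submitters' processing notes and the methods, the authors used HISAT2 2.0.5, SAMtools 1.4 and StringTie 1.3.3.13 with the mouse build mm9. The step that gave the counts and its use of strand are not given in the sources used here. The authors deposited estimated counts per gene, not normalized (13.6% of values were not whole), which were rounded, and length-scaled values read as FPKM because they implied a constant length per gene. Of 39488 rows 9788 circular RNAs were left out. Symbols were matched by NCBI gene ID, and mm9 coordinates came from GENCODE.

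Genes were filtered by edgeR's filterByExpr, normalized by TMM and tested with edgeR 4.0.16 (quasi-likelihood, robust) (R 4.3.3), and p-values were adjusted by Benjamini-Hochberg. The standard error is the log2 fold change divided by the root of F. The biological coefficient of variation was 37.3%. The step was run on simulated independent counts that held no effect of single libraries or of gene length. That run therefore cannot show how the fit handles the uneven libraries found here. The genes named were all 42 members, the 2 highest and the 2 lowest called genes of each further list, and called markers. The members and lists were chosen with earlier results of these data known. Alternatives were DESeq2 1.42.0, limma 3.58.1 (voom, and on log2(FPKM + 1) or log2(FPKM + 0.1)), other scalings, filters and thresholds, NCBI rows alone, removal of the length trend, the replicate number as a block, and each library left out.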

Additional observations from a re-analysis of the deposited data

Results flagged for a closer look

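Single libraries stood far from the rest of their group of 5 in 18 of 84 groups of values (42 genes in 2 groups), where chance gives about 1 in 20, or 4.2, for independent and normal values. The genes share their libraries and CPM are skewed, and over all genes tested 739 of 12654 control groups (5.84%) and 2532 of 12654 ox-LDL groups had such a library. Among the members these were 12 of 42 control groups, a larger share than over all genes. In the ox-LDL group they were 6 of 42, a smaller share than over all genes. Control replicate 1 was the high library in all 12 of these control groups. Over all genes it was so in 187 of the 739 control groups with such a library, or 1.48% of all 12654. It stood at 578 CPM for Pcna (next control 349), 49.2 for Rrm1 (30.5), 8.02 for Rrm2 (3.04), 12.4 for Tyms (6.33), 7.14 for Tk1 (2.10) and 8.52 for Mcm7 (5.56). It also stood at 19.1 CPM for Top2a (next control 7.87), 17.6 for Birc5 (4.06), 7.19 for Ccne2 (1.24), 18.8 for Ccna2 (5.73), 10.3 for Ccnb2 (2.35) and 23.0 for Cdk1 (8.29).

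Ox-LDL replicate 5 was the high library for Ccne1 at 38.0 CPM (next 15.6), Ccnd2 at 8.18 CPM (2.97), Cdkn1a at 478 CPM (152) and Mcm2 at 15.5 CPM (6.09). Ox-LDL replicate 1 was high for E2f2 at 2.70 CPM (0.718), and ox-LDL replicate 2 was low for Mcm4 at 3.77 CPM (next lowest 7.13).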

How the results depend on the processing

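Counts of called members were 1 lower and 2 higher at an adjusted p below 0.01. They are to be read against all genes called in both directions, 1866 in this fit and 3009 with DESeq2. That number was 2873 with the length trend removed, 3257 without ox-LDL 2 and 1961 without ox-LDL 1. It was 1287 with library size alone, 1999 with no filter, 1931 with limma-voom and 1437 with at least 10 counts in every library. On FPKM it was 1305, 1027 without a filter and 1243 on log2(FPKM + 0.1). The lower count was 5 with DESeq2 and with the length trend removed, 3 with library size alone, with no filter on low counts, with limma on log2(FPKM + 1) with or without a filter, on log2(FPKM + 0.1), and with controls 1 and 5 and ox-LDL 2 left out together (chosen after seeing the data), 2 with limma-voom, 0 with at least 10 counts in every library, and 6 at an adjusted p below 0.05. It was 1 to 3 when single libraries were left out (3 without ox-LDL 2, adding Pcna and Cdkn2c, and 2 without ox-LDL 1, adding E2f2 with a log2 fold change of -2.25). The higher count was 1 with at least 10 counts in every library and with each limma fit on FPKM. Kif23 and Ccnd2 were not tested with at least 10 counts in every library, nor Ccnd2 in the filtered FPKM fits, so that it lost its call only on unfiltered FPKM. The cause of these differences was not tested. Ccne1 was called in every alternative and Kif23 in every one that tested it, with adjusted p-values up to 0.00833 and 0.00269. Cdkn2c was called in 10 alternatives and Pcna in 7.

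The sign of Mcm2 changed to -0.048 with upper-quartile normalization, -0.078 with library size alone, -0.022 with limma-voom, -0.11 with limma on log2(FPKM + 1) with or without a filter, -0.20 on log2(FPKM + 0.1) and -0.015 with the replicate block. Leaving out single libraries turned the sign in 9 genes, with ranges of -0.40 to 0.34 for Mcm2, -0.33 to 0.0017 for Mcm7, -0.16 to 0.55 for Uhrf1, -0.75 to 0.046 for Plk1, -0.83 to 0.086 for Cdc20, -0.45 to 0.041 for Ccnd3, -1.57 to 0.13 for Ccne2, -0.50 to 0.016 for Cdk4 and -0.16 to 0.050 for Cdkn1b. With controls 1 and 5 and ox-LDL 2 left out together, Ccnd3 was at 0.15, Ccne2 at 0.059 and Cdkn1b at 0.041. Of 898 values for members, 849 kept their direction and side of the threshold. Of 322 for the called genes of the further lists 237 did and 85 missed the threshold, and none changed sign. The 2 tallies are not alike, since these genes were picked for their calls and could not gain one, while most members had no call to lose.

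The replicate numbers gave no clear pairing of the libraries: deviations of same-numbered libraries correlated at 0.024, -0.272, 0.443, -0.285 and 0.411, and 1 of 5 controls correlated best with its own number. Deviations also followed gene length, so these correlations cannot decide whether same-numbered libraries belong together. With the replicate block 1 member was called lower and 2 higher, and 1434 genes were called in all against 1866. Low counts limit the members, the mitosis genes most: 18 of the 42 members had fewer than 10 counts in at least 1 library. At least 10 counts in every library were held by 3 of the 13 mitosis genes and 9 of the 12 replication genes. The same held for 9 of the 14 cyclins, CDKs and E2F factors and for all 3 inhibitors.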
